A study of Mus musculus with 39 samples.

Results

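The genes described are 9 components of the histone H3 lysine 9 (H3K9) methylation system: the methyltransferases Ehmt1, Ehmt2, Suv39h1, Suv39h2 and Setdb1, the corepressor Trim28, and the heterochromatin protein 1 (HP1) genes Cbx1, Cbx3 and Cbx5. They were chosen by name, as all probes that the array files assign to these symbols, which gave 16 probes for 9 of the 34797 gene symbols on the array. Gene expression was measured on 39 one-colour Agilent arrays, each with RNA pooled from 100 mouse oocytes or embryos, in 13 conditions of 3 arrays each. All embryos came from in vitro fertilization of B6D2F1 oocytes (females of 8 to 9 weeks) with ICR sperm (males of 15 to 20 weeks), and the oocytes carried the same strain label, B6D2F1 x ICR. Control samples were GV and MII oocytes, 1-cell embryos at 12 h post insemination (hpi), 2-cell embryos at 24 hpi, 4-cell embryos at 48 hpi, 8-cell embryos, morulae and blastocysts. Treated zygotes received a histone deacetylase inhibitor (HDACi) at 10 µM from 4 hpi for 6 h and then returned to the medium of the control. T247, which targets HDAC3, was measured in 1-cell embryos, 2-cell embryos and 4-cell embryos. MGCD0103, which targets mainly class I HDACs, was measured in 1-cell and 2-cell embryos. The exposure ended before every collection, so each value is a level some hours after the inhibitor was removed. The comparisons ask how the H3K9 genes stood after each inhibitor and how they changed along untreated development. Because every array pooled 100 embryos, fewer embryos with a transcript and less transcript per embryo cannot be told apart.

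Methylated H3K9 is a mark of silent chromatin. Ehmt1 (GLP) and Ehmt2 (G9a) work as a pair that places mono- and dimethylation, largely in euchromatin, while Suv39h1 and Suv39h2 place trimethylation at pericentromeric repeats. Setdb1 trimethylates H3K9 at retrotransposons, to which Trim28 (KAP1) brings it by binding KRAB zinc finger proteins. HP1 proteins read the methylated lysine: Cbx5 (HP1-alpha), Cbx1 (HP1-beta) and Cbx3 (HP1-gamma). In mouse zygotes the maternal pronucleus carries H3K9 methylation that the paternal pronucleus largely lacks, and the stores of these factors pass from maternal to embryonic transcripts during zygotic gene activation, most of which takes place at the 2-cell stage in mouse.

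The probes matter here because 6 of the genes were measured by more than 1 and the pair of Ehmt1 and that of Suv39h2 behaved differently. Each probe was a 60-base oligonucleotide; its first 30 bases are shown 5′ to 3′ for the genes on which the results turn, with capitals for runs of at least 8 alternating G and T bases.
Ehmt1 probe 1: GTGTGTGTGTGaGTGTGTGTGactcttcta
Ehmt1 probe 2: ccacacgctatgatgatgatgaataaactc
Suv39h2 probe 1: ttcgggGTGTGTGTGTcTGTGTGTGTGTGT
Suv39h2 probe 2: tcactgtttgcttacttgagaagtcggaat
Cbx3 probe 1: accctgaacgaataatcggcgccacagaca
Cbx3 probe 2: gttatggttcaatgagccagaaaagtaact
Trim28 probe 1: gttcaaacagttcaacaagctgactgagga
In the mm9 coordinates of the array files, Ehmt1 probe 1 lies at chr2:24646395-24646454 and probe 2 at chr2:24646765-24646824, both on the minus strand and 370 bases apart. Suv39h2 probe 1 lies at chr2:3373186-3373245 and probe 2 at chr2:3375594-3375653, also on the minus strand. Cbx3 probe 1 is at chr6:51431757-51431816 and probe 2 at chr6:51433585-51433644 on the plus strand, and both carry the accession of 1 Cbx3 transcript. Trim28 probe 1 maps to chr7:13615914-13616069 on the plus strand, a span longer than its 60 bases. Exon and untranslated region annotation of mm9 was not used here. The longest alternating G/T run was 11 bases in Ehmt1 probe 1 and 13 in Suv39h2 probe 1, against at most 5 in the other probes tested. Ehmt1 probe 1 shared a stretch of 20 bases with probes of Armcx3 and Trim56, and Suv39h2 probe 1 with a probe of Kcna4. Cbx1 probe 1 shared about 45 bases with 1 probe that the file places in an intergenic region, so its signal is not certain to come from Cbx1 alone. The other 13 member probes shared no stretch of 20 bases with any other probe.

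Of the 16 probes, 15 gave a positive and significant spot in every condition, on 1 or more of its arrays, and were tested, with 0 of their values filled in. Trim28 probe 2, which lies on the strand opposite to probe 1, did not pass: it was well above background on 1 of 39 arrays, replicate 1 of the 4-cell control, and is not used further. Suv39h1 was well above background on 33 arrays, Cbx3 probe 2 on 30, Cbx1 probe 2 on 38 and the other 12 tested probes on all 39. Between 44.39% and 58.3% of the spots on an array were well above background and 0 were saturated. Oocyte marker genes (Zp3, Gdf9, Bmp15, Mos and Oosp1) were all well above background from the GV to the 2-cell stage and their median level, on the log2 signal scale relative to the 75th percentile of the array, went from 8.63 in GV oocytes to -4.56 in blastocysts. Replicate 1 of the 2-cell control stood apart, with correlations of 0.945 and 0.953 to its fellow arrays across probes where those 2 arrays correlated at 0.993. For results that rest on the 2-cell control, the value without the control arrays of slide 1, which held replicate 1 of every control stage, is therefore added where it changed a call or moved a called fold by over 1.5 times. Slides 1, 2 and 3 held the control arrays, slides 4 and 5 those of T247 and slide 6 those of MGCD0103, so treatment and slide cannot be told apart. Differences are given as log2 fold changes (LFC) of the normalized signal, treated minus control or later minus earlier stage, with P from limma adjusted over all probes tested. A probe was called a differentially expressed gene (DEG), upregulated or downregulated, when the LFC was at least 1 in either direction with an adjusted P below 0.05.

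**Figure D1:**
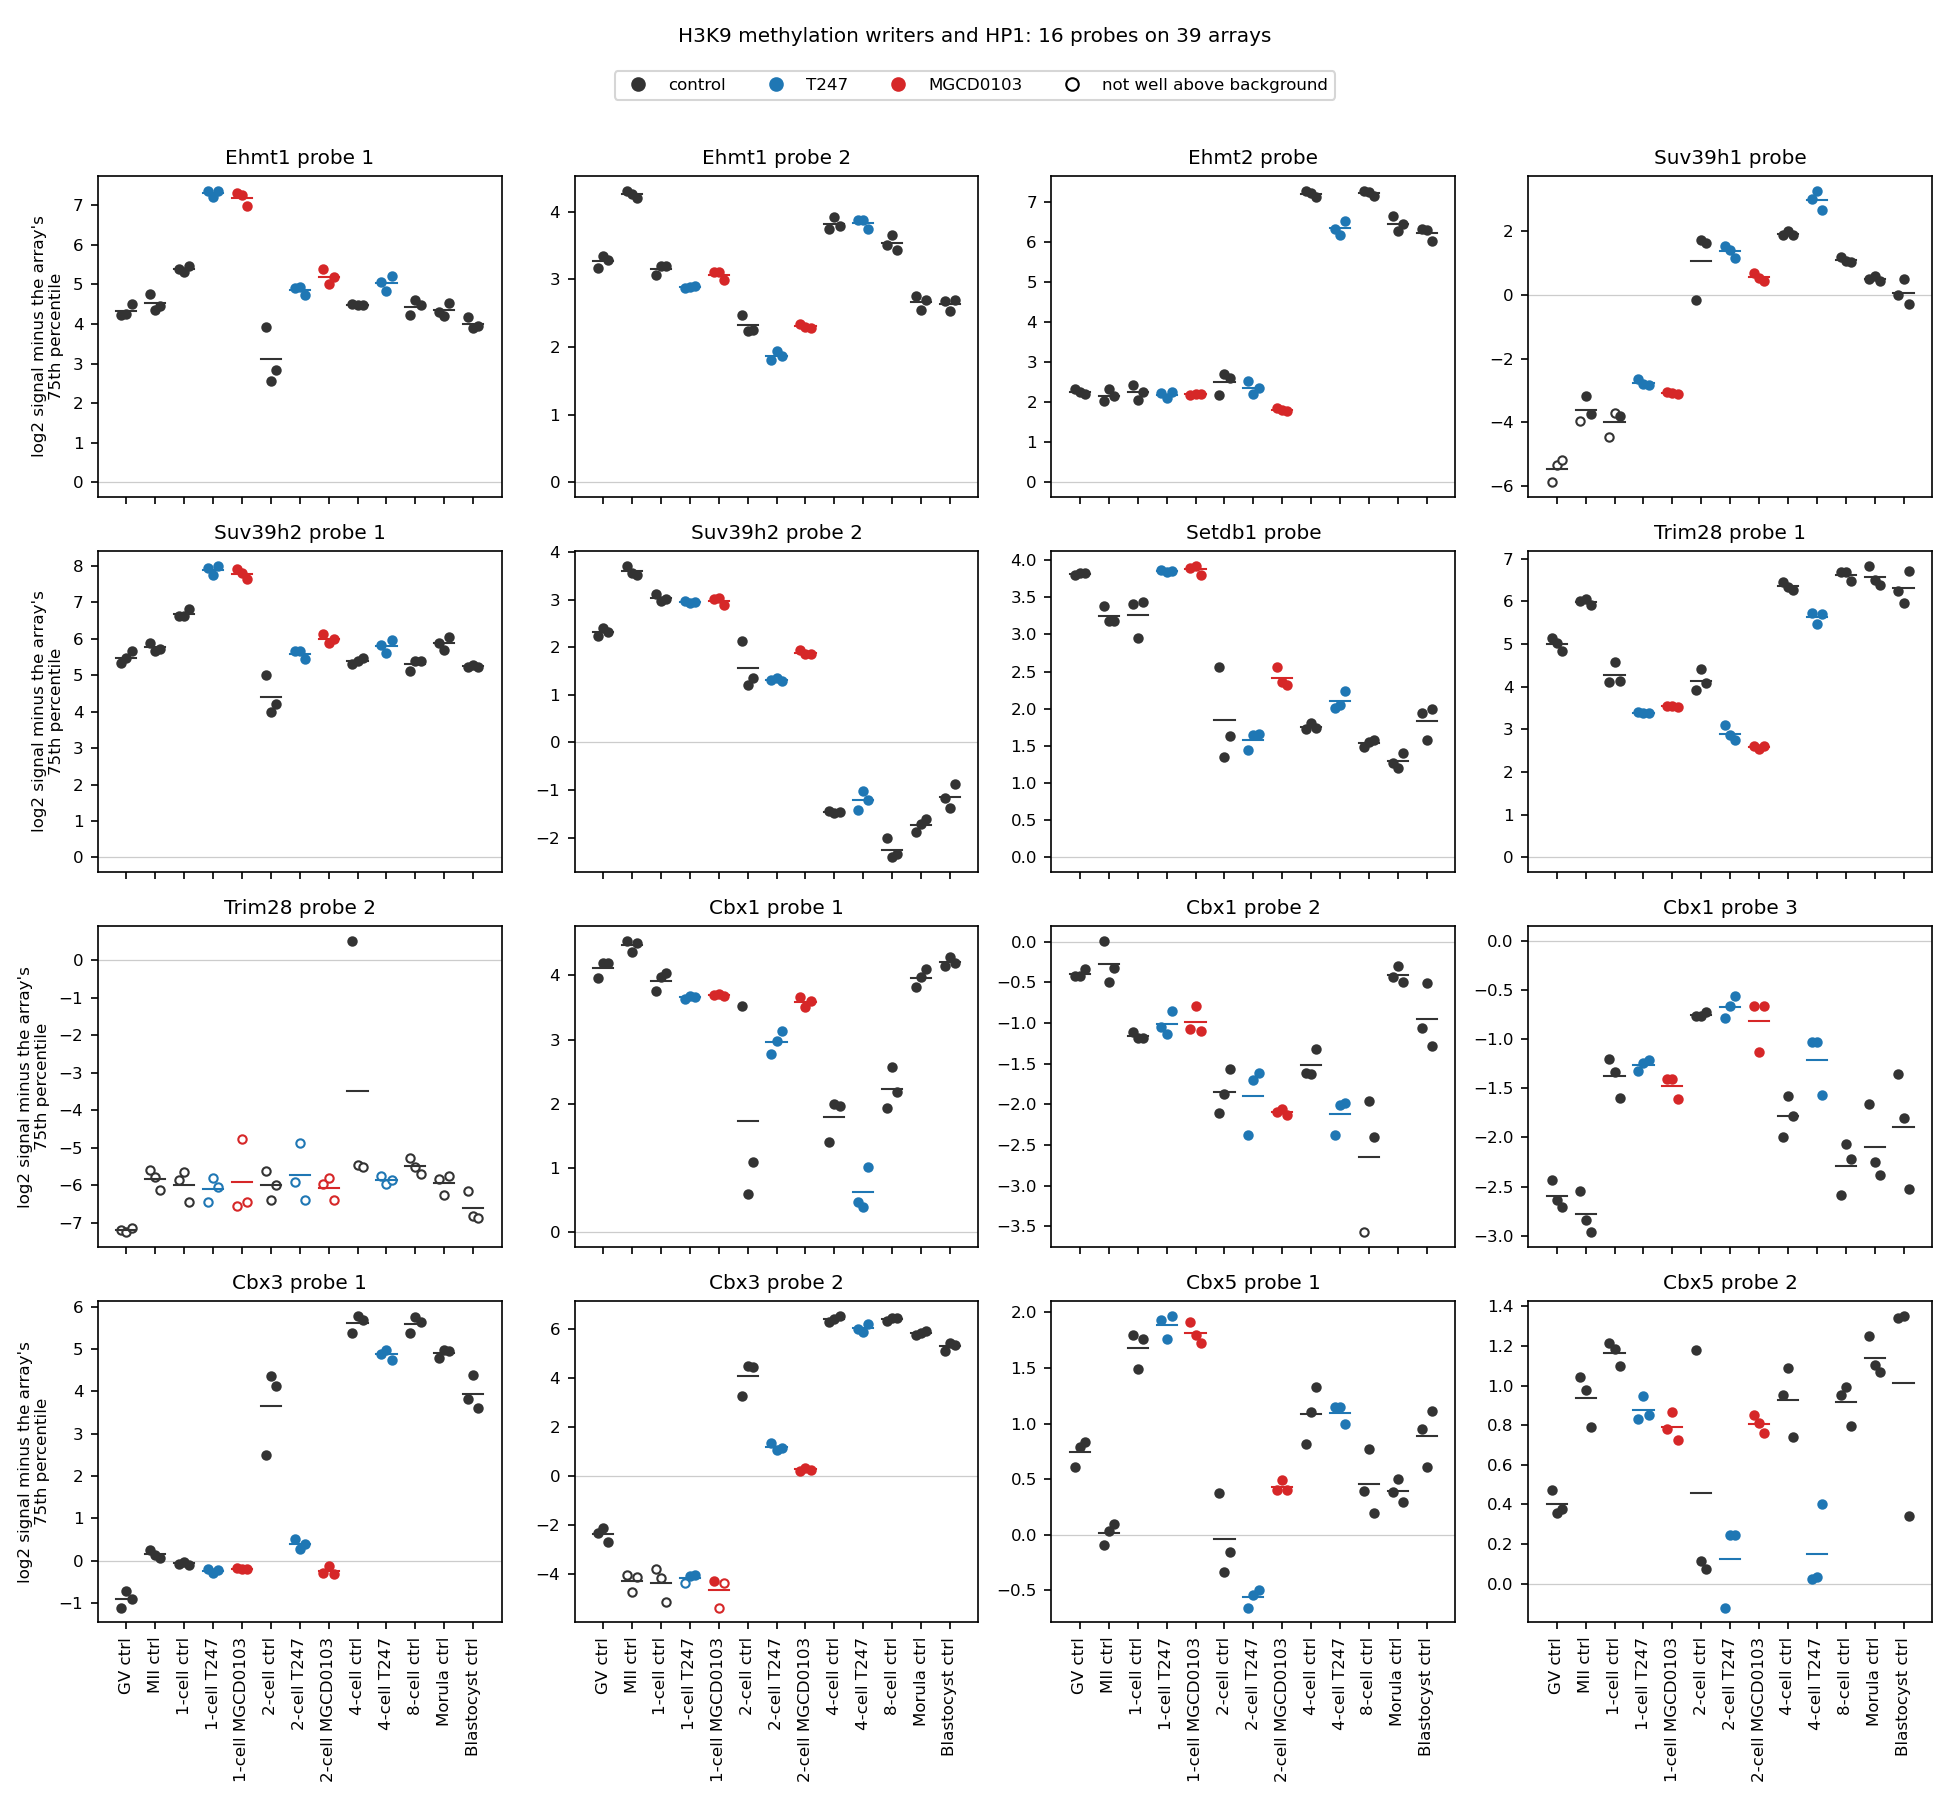
Level of each of the 16 probes on all 39 arrays, as log2 signal minus the 75th percentile of the array (vertical axes, 1 scale per panel), in 13 conditions ordered by stage. Points are single arrays, bars are means of 3 arrays, and open points were not well above background. Both Cbx3 probes step up at the 2-cell control, and Ehmt2 steps up at the 4-cell stage, while Trim28 probe 2 stays near background on 38 arrays.

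Cbx3 showed the largest response of the family to the inhibitors. In the 2-cell control, Cbx3 probe 1 read 10.36, 12.41 and 12.19 (normalized log2 signal of the 3 arrays). After T247 it read 8.30, 8.05 and 8.15 at the same stage. After MGCD0103 it read 7.58, 7.76 and 7.55. No treated array overlapped a control array, and the treated 2-cell arrays lay beside the 1-cell control, at 8.10, 8.16 and 8.09, in which this HP1 transcript was still low. The 2-cell level was 11.2-fold lower after T247 (LFC -3.49, SE 0.32, adjusted P = 6.34e-08 in limma) and 16.2-fold lower after MGCD0103 (LFC -4.02, SE 0.32, adjusted P = 9.52e-09). The second probe, from another part of the transcript, was lower as well.

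Cbx3 probe 2 read 11.11, 12.58 and 12.52 in the 2-cell control. It read 9.12, 8.83 and 8.90 after T247 and 8.10, 8.22 and 8.14 after MGCD0103. The groups again did not overlap, with an LFC of -3.12 (SE 0.34, adjusted P = 4.52e-07) for T247 and -3.91 (adjusted P = 2.59e-08) for MGCD0103. Unlike probe 1, probe 2 was not well above background on any 1-cell control array, and the treated 2-cell arrays lay above the 1-cell control values of 3.15 to 4.35. Without the control arrays of slide 1 the differences were larger, with LFCs of -4.14 and -4.67 for probe 1 and -3.60 and -4.39 for probe 2 (T247 and MGCD0103).

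In 1-cell embryos no change of Cbx3 was detectable after either inhibitor. The LFC of probe 1 was -0.06 (95% interval -0.74 to 0.62) after T247 and 0.04 (-0.63 to 0.72) after MGCD0103. By the 4-cell stage after T247 the level was closer to control but still below it, with probe 1 at 12.52, 12.62 and 12.23 against 12.81, 13.22 and 13.12. Probe 2 lay between 13.535 and 13.656 after T247 and between 13.701 and 13.971 in the control. With both probes no T247 array overlapped a control array. The 4-cell difference of probe 1 from control, an LFC of -0.59 (95% interval -1.27 to 0.09), did not pass the test (adjusted P = 0.149), nor did the -0.23 of probe 2 (adjusted P = 0.627). The T247 effect itself differed between the 2-cell and 4-cell stages by 2.90 for probe 1 (SE 0.46, adjusted P = 7.99e-05) and by 2.89 for probe 2 (adjusted P = 0.000134), on the log2 scale.

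**Figure D2:**
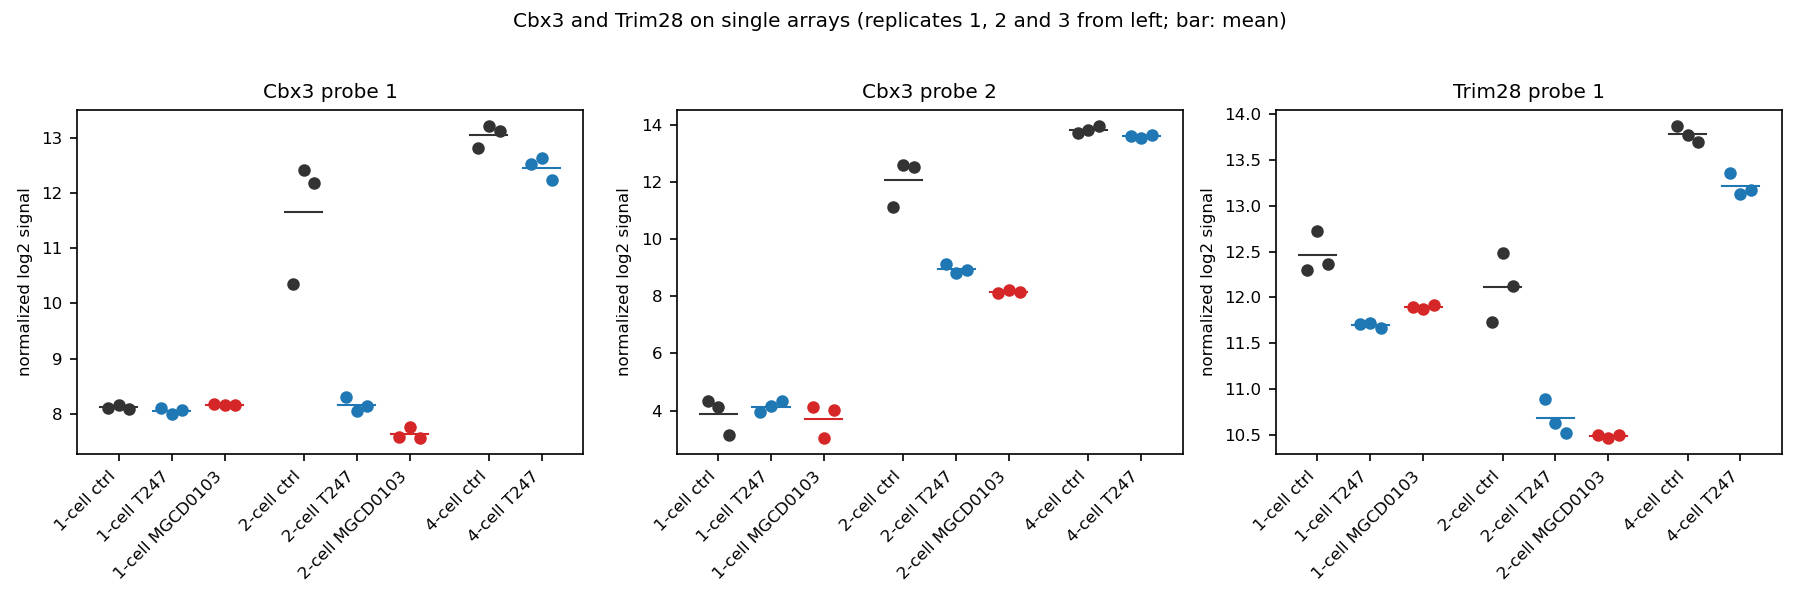
Normalized log2 signal (vertical axes) of both Cbx3 probes and of Trim28 probe 1 on each array of 1-cell embryos, 2-cell embryos and 4-cell embryos, with replicates 1, 2 and 3 from left to right and a bar at the mean. All 6 treated 2-cell arrays lie below all 3 control arrays in each panel, and replicate 1 of the 2-cell control is the lowest of its group.

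Trim28, the corepressor that recruits Setdb1, fell at the same stage. Probe 1 read 11.73, 12.48 and 12.13 in the 2-cell control, 10.89, 10.63 and 10.53 after T247, and 10.49, 10.46 and 10.50 after MGCD0103. The groups did not overlap, and the LFC was -1.43 (SE 0.15, adjusted P = 3.7e-07) for T247 and -1.63 (SE 0.15, adjusted P = 7.02e-08) for MGCD0103. The values were -1.62 and -1.82 without the control arrays of slide 1. Smaller differences in the same direction passed the adjusted P but not the fold limit at the other stages, with LFCs of -0.76 (T247) and -0.57 (MGCD0103) in 1-cell embryos and of -0.56 in 4-cell embryos after T247. Over all 13 conditions the 2-cell embryos after T247 and after MGCD0103 held the lowest Trim28 levels, 2.90 and 2.58 on the scale relative to the 75th percentile of the array, where the 2-cell control stood at 4.14 and the 8-cell control, the highest, at 6.62.

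For Ehmt1, the partner of Ehmt2, the answer depended on the probe. Probe 1, the brighter, read 13.60, 13.47 and 13.69 in the 1-cell control, 15.66, 15.54 and 15.70 after T247, and 15.69, 15.62 and 15.43 after MGCD0103. Probe 1 rose 4.12-fold after T247 (LFC 2.04, SE 0.19, adjusted P = 4.74e-07) and 3.98-fold after MGCD0103 (LFC 1.99, adjusted P = 1.11e-06), with no overlap between treated and control arrays. Probe 2 of the same gene, 370 bases away, read 11.23, 11.36 and 11.40 in the 1-cell control, 11.17, 11.21 and 11.20 after T247, and 11.45, 11.44 and 11.37 after MGCD0103. Its LFCs were -0.14 (95% interval -0.34 to 0.07) and 0.09 (-0.11 to 0.29), neither of which reaches the rise that probe 1 showed. At the 2-cell stage probe 1 rose by 1.58 after T247 and by 2.05 after MGCD0103 (log2), whereas probe 2 had LFCs of -0.64 (adjusted P = 2.02e-05, below the fold limit) and -0.07 (adjusted P = 0.569).

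Suv39h2 gave the same split. Probe 1, again the brighter, read 14.85, 14.75 and 15.09 in the 1-cell control and 16.26, 16.10 and 16.30 after T247. After MGCD0103 it read 16.25, 16.15 and 16.09. The probe rose after both inhibitors at the 1-cell stage (LFC 1.32, SE 0.15, adjusted P = 2.76e-06 for T247, and 1.27, adjusted P = 8.2e-06 for MGCD0103) and after MGCD0103 at the 2-cell stage (LFC 1.53, adjusted P = 9.8e-08), and missed the fold limit narrowly after T247 at the 2-cell stage (LFC 0.99, adjusted P = 1.74e-05). That last value was 1.20, past the limit, without replicate 1 of the 2-cell control, and 1.54 with quantile normalization. Probe 2, 2408 bases away, had LFCs of 0.04 and 0.11 at the 1-cell stage and of -0.44 and 0.27 at the 2-cell stage (T247 and MGCD0103), and did not meet the DEG rule in any inhibitor comparison. Over the 13 conditions Ehmt1 probe 1 followed Suv39h2 probe 1 (Pearson r = 0.974) and not the other Ehmt1 probe (r = 0.0424), and the Suv39h2 pair had r = 0.488.

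What the pair of rising probes has in common in sequence is the alternating G/T run shown above. On the whole array 189 probes held a run of at least 10 such bases, and 177 of them were tested against the inhibitors. They were picked out after the member values had been seen, so their counts are a description with no test. After T247 at the 1-cell stage, 59.9% of them were upregulated against 7.49% of all other probes, and after MGCD0103 52.5% against 4.43%. At the 2-cell stage the shares were 38.4% against 8.45% for T247 and 78.5% against 11.2% for MGCD0103. At the 4-cell stage after T247 they were closer, 15.8% against 12.2%. The median LFC of the G/T-run probes was 1.14, 1.06, 0.77 and 1.29 in the first 4 of these comparisons and 0.33 at the 4-cell stage, against 0.04, 0.12, -0.23, 0.05 and 0.04 for the others. In 46 gene symbols with both kinds of probe, a G/T-run probe was upregulated in 25 genes and another probe of the gene in 3 after T247 in 1-cell embryos, and in 18 and 3 genes after MGCD0103. In 2-cell embryos the counts were 13 and 5 after T247 and 39 and 7 after MGCD0103. In 4-cell embryos after T247 they were 4 and 5, with no excess of the G/T-run probes. The part of the repeat in the rise of Ehmt1 probe 1 and Suv39h2 probe 1 was not tested, and the rises are given here as those of the probes, not of the genes.

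**Figure D3:**
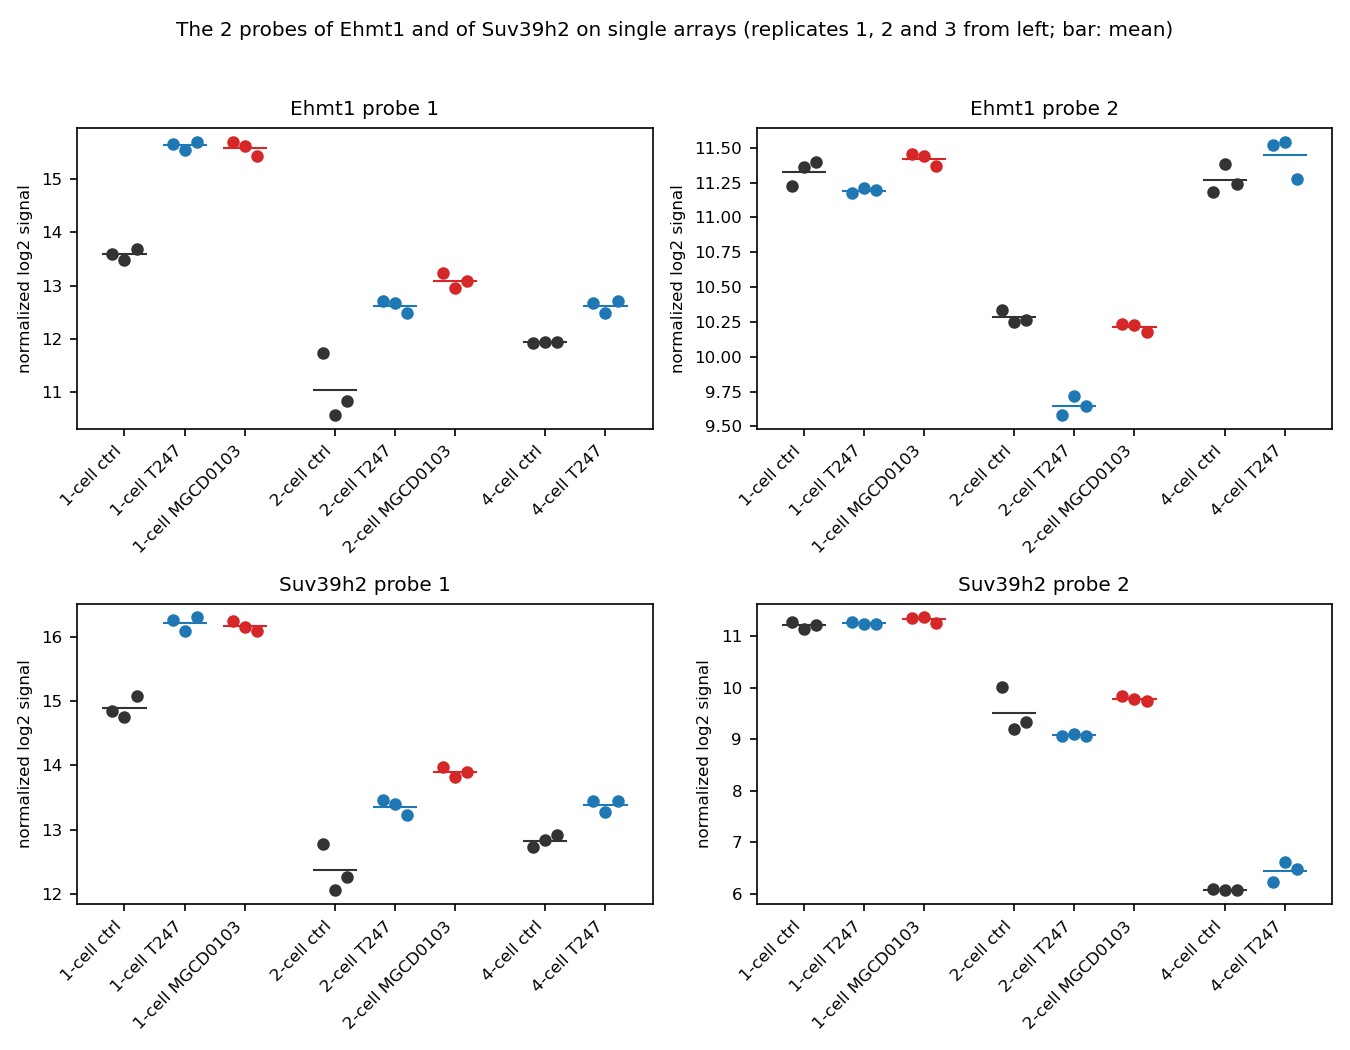
Normalized log2 signal (vertical axes) of both probes of Ehmt1 and of Suv39h2 on each array, with replicates from left to right and a bar at the mean. The probe 1 panels show treated 1-cell and 2-cell arrays above their controls, and the probe 2 panels show the 1-cell arrays of all 3 groups between 11.15 and 11.45.

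**Figure D4:**
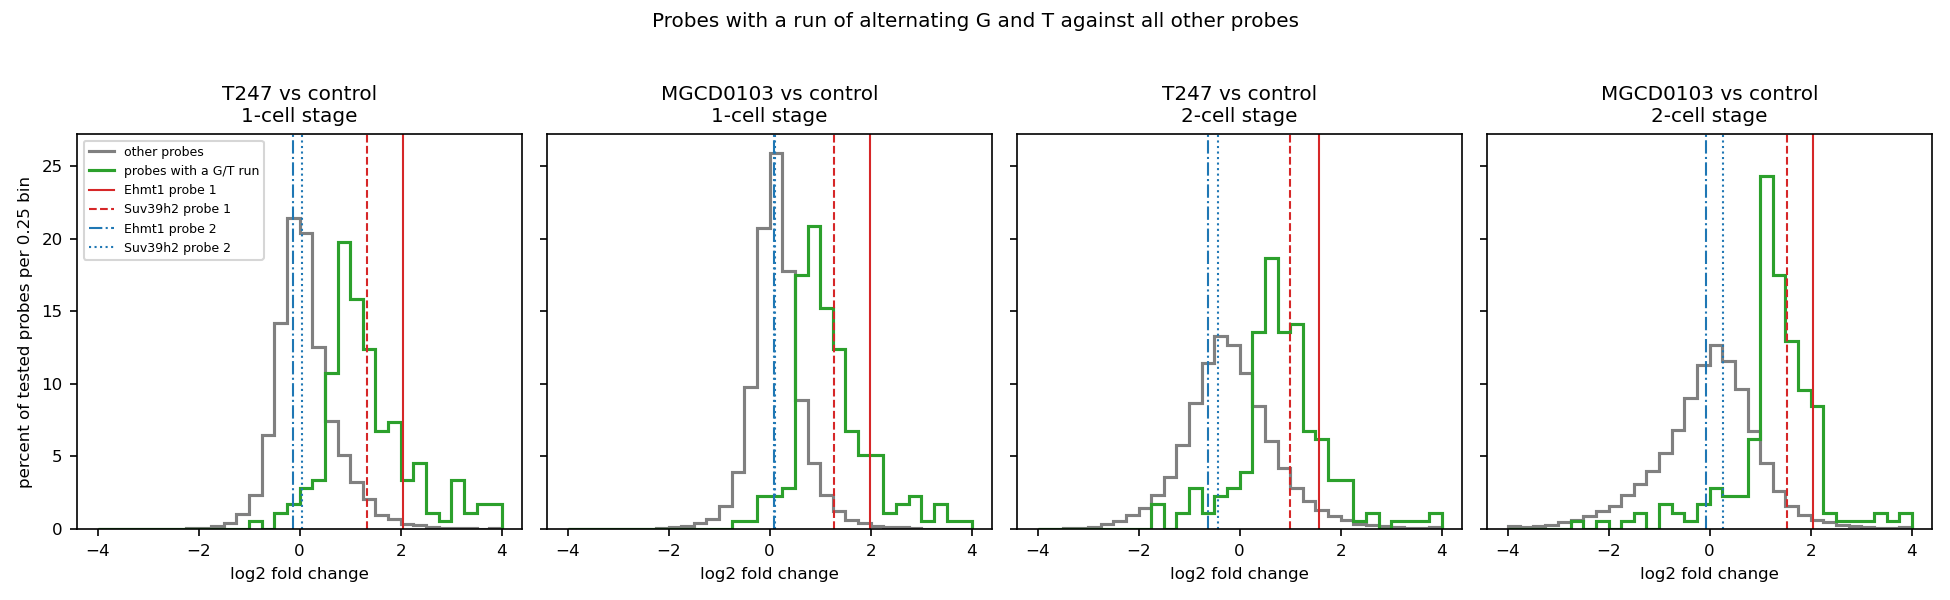
Share of tested probes (percent per 0.25 bin, values beyond 4 in the end bins) by log2 fold change against control, in the 4 comparisons of T247 and MGCD0103 with control in 1-cell and 2-cell embryos, for the 177 probes with a run of at least 10 alternating G and T bases (green) and all other probes (grey). Vertical lines mark the probes of Ehmt1 and Suv39h2: the probe 1 lines (red) lie within the green distribution, right of its median in each panel, and the probe 2 lines (blue) lie between -0.64 and 0.27.

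The single probe of Suv39h1, a trimethylase of pericentromeric chromatin, was dim in 1-cell embryos. It read 3.63, 4.57 and 4.45 in the 1-cell control, of which 1 array was well above background. It read 5.63, 5.47 and 5.47 after T247 and 5.33, 5.28 and 5.21 after MGCD0103, with all 6 treated arrays well above background. The level was 2.47-fold higher after T247 (LFC 1.30, SE 0.35, adjusted P = 0.0104) and 2.08-fold higher after MGCD0103 (LFC 1.06, adjusted P = 0.0476). Both calls were fragile, since without replicate 1 of the 1-cell control the T247 value was 1.01 (adjusted P = 0.0664), and without the control arrays of slide 1 the MGCD0103 value was 0.76, under the fold limit. With slide as a random block the MGCD0103 call was lost as well (adjusted P = 0.0807), and the T247 value was 0.44 (adjusted P = 0.244) with the other background correction, normexp. In 4-cell embryos T247 arrays read 10.63, 10.92 and 10.22 against 9.33, 9.48 and 9.38 in the control, an LFC of 1.19 (adjusted P = 0.00983) with no overlap. At the 2-cell stage the control arrays spread from 7.77 to 9.70 and neither inhibitor passed (LFC 0.10 for T247, and -0.58, adjusted P = 0.173, for MGCD0103). Without the control arrays of slide 1, which leaves control values of 9.70 and 9.62, the MGCD0103 arrays at 8.56, 8.45 and 8.33 were lower (LFC -1.22, adjusted P = 4.78e-06).

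Setdb1 and Ehmt2 moved less. Setdb1 read 11.59, 11.12 and 11.64 in the 1-cell control, and the treated arrays lay above all of these, between 12.15 and 12.28. The LFCs of 0.71 (adjusted P = 0.0105) for T247 and 0.79 (adjusted P = 0.00767) for MGCD0103 were under the fold limit. The T247 effect on Setdb1 turned from 0.71 at the 1-cell stage to -0.44 at the 2-cell stage, and the difference between the stages passed (-1.15, SE 0.27, adjusted P = 0.00322). That difference was -0.90, under the fold limit, without the control arrays of slide 1. Ehmt2 read 9.74, 9.74 and 9.67 after MGCD0103 at the 2-cell stage, below the control values of 10.06, 10.74 and 10.63, and read 13.95, 13.83 and 14.00 after T247 at the 4-cell stage against 14.71, 14.64 and 14.56. The LFCs, -0.76 (adjusted P = 0.000268) and -0.71 (adjusted P = 0.000635), passed the adjusted P without reaching the fold limit.

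Among the other HP1 genes, the 3 probes of Cbx1 disagreed. Probe 1 read 11.36, 8.56 and 9.06 in the 2-cell control, and the treated arrays read 10.56 to 10.91 after T247 and 11.45 to 11.54 after MGCD0103. Replicate 1 of the control lay above every T247 array and below every MGCD0103 array, and the other control arrays lay below both groups. The LFC was 1.84 (SE 0.43, adjusted P = 0.00153) for MGCD0103 and 1.08 (adjusted P = 0.0436, arrays overlapping) for T247. These became 2.69 and 1.93 without the control arrays of slide 1, whereas the T247 value was 0.53 (adjusted P = 0.292) without replicate 2 of the 2-cell control and 0.78 (adjusted P = 0.184) without replicate 3. With slide as a random block the T247 call of Cbx1 probe 1 was lost (adjusted P = 0.0791). In 4-cell embryos after T247 the probe had an LFC of -1.01 that did not pass (adjusted P = 0.0634), and of -1.21 (adjusted P = 1.47e-05) without the control arrays of slide 1. Probes 2 and 3 did not meet the DEG rule in any inhibitor comparison, with 2-cell LFCs between -0.36 and -0.12. Over the 13 conditions probe 1 correlated with probe 2 at r = 0.736 and with probe 3 at r = -0.400.

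Cbx5 was the only member to meet the DEG rule between the inhibitors, with 1 of its 2 probes at the 2-cell stage. Probe 1 read 7.10, 7.20 and 7.25 after T247 at the 2-cell stage and 8.28, 8.40 and 8.29 after MGCD0103, on either side of the control mean of 7.91. MGCD0103 was higher than T247 by 1.14 (SE 0.16, adjusted P = 0.00011), and probe 2 of Cbx5 pointed the same way with 0.82 (adjusted P = 0.00709), under the fold limit. In 2 other processings, scaling to the 75th percentile and another background correction, the difference of probe 1 was 0.99 or 0.94 and just missed the fold limit.

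Counted by probe, 3 of 15 were upregulated and 0 downregulated after T247 at the 1-cell stage, where 9.19% of all tested probes were DEGs (7.77% up and 1.42% down). After MGCD0103 at the 1-cell stage the count was also 3 up and 0 down, against 5.71% of all probes (4.69% up and 1.03% down). For 2-cell embryos it was 2 up and 3 down after T247, against 23.5% (8.61% up and 14.9% down), and 3 up and 3 down after MGCD0103, against 26.2% (11.6% up and 14.6% down). For 4-cell embryos it was 1 up and 0 down after T247, against 18.0% (12.2% up and 5.78% down). The effect of T247 differed between 1-cell and 2-cell embryos for 4 of 15 probes (18.0% of all probes), that of MGCD0103 for 5 (19.3%), and that of T247 between 2-cell and 4-cell embryos for 3 (24.4%). Leaving out the probes with a G/T run took the counts to 1, 1, 4, 4 and 1. The median LFC of the 15 probes was 0.21, 0.11, -0.43, -0.07 and 0.15 in these 5 comparisons, against 0.04, 0.12, -0.23, 0.05 and 0.04 for all probes. Each inhibitor was compared with the same control arrays, so the calls they have in common are not independent of each other.

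**Figure D5:**
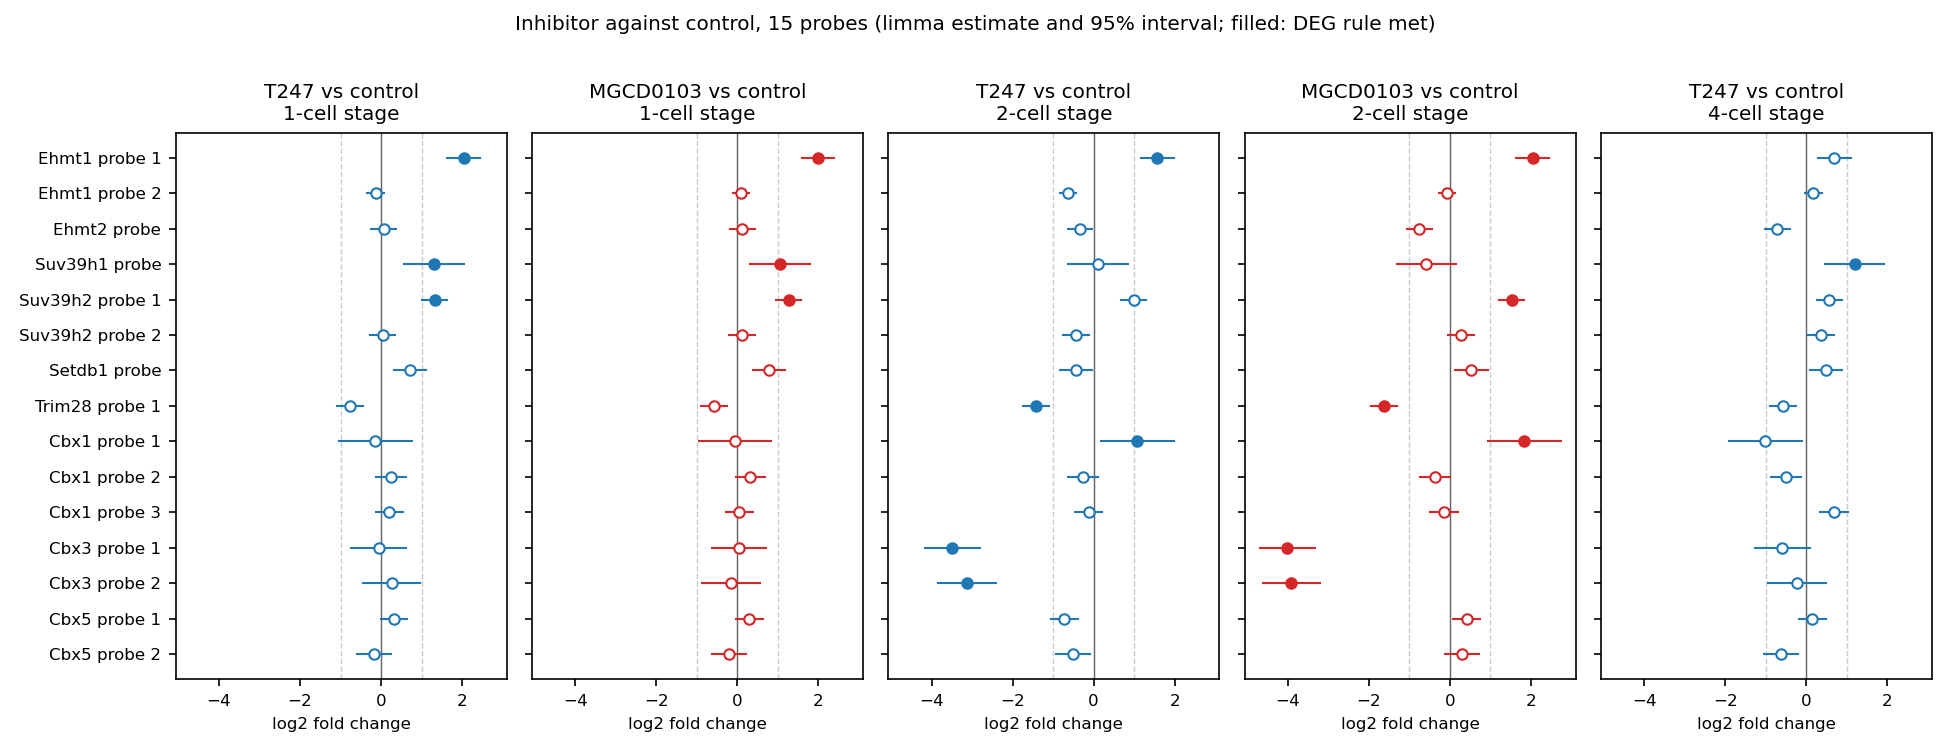
Log2 fold change (horizontal axes) of the 15 tested probes for each inhibitor against the control of its stage, with 95% intervals from limma and filled points where the DEG rule (LFC of at least 1 in size and adjusted P below 0.05) was met. The Cbx3 probes lie between -3.12 and -4.02 at the 2-cell stage and have intervals that span 0 at the other stages.

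The compounds were also set directly against each other at the same dose and times, over 15 probes at each of 2 stages, with P adjusted over all probes. In 1-cell embryos 0 of 15 met the DEG rule (background 0.277%), while 1 had an unadjusted P below 0.05 and 0 an adjusted P below 0.05 in limma (0.393% of all probes). The 95% interval of the difference was -0.57 to 0.78 for Cbx3 probe 1 and -0.46 to 0.35 for Ehmt1 probe 1. At the 2-cell stage 1 probe, Cbx5 probe 1, met the rule (background 5.15%), and 7 had an adjusted P below 0.05 at any fold (26.3% of all probes). For Cbx3 all arrays of MGCD0103 lay below all those of T247 with both probes, by 0.53 (95% interval -1.21 to 0.14) and 0.80 (-1.51 to -0.08) on the log2 scale. Neither difference passed after adjustment in limma (adjusted P = 0.230 and 0.0899). These intervals and P values use a spread pooled over the 8 conditions of the fit. The 2-cell control, not part of this comparison, had the largest SD (1.13 and 0.83). The SD was 0.125 (T247) and 0.114 (MGCD0103) for probe 1 and 0.154 and 0.0634 for probe 2.

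The untreated stages, fitted separately on the 24 control arrays, showed when the transcript of each factor was high or low. The largest step belonged to Cbx3 between the 1-cell and 2-cell stages. Probe 2 read 4.34, 4.14 and 3.17 at the 1-cell stage, not well above background on any array, and 11.15, 12.62 and 12.57 at the 2-cell stage (LFC 8.23, adjusted P = 3.85e-14). The estimate is 301-fold, and its size is uncertain because the 1-cell readings were near background. Probe 1 rose from 8.13, 8.19 and 8.11 to 10.40, 12.46 and 12.23 (LFC 3.55, adjusted P = 2.22e-08). With the control arrays of slide 1 left out, these LFCs were 8.94 and 4.20. A second, smaller rise followed at the 4-cell stage, by 1.40 and 1.76, of which that of probe 1 was 0.87, under the fold limit, without the control arrays of slide 1. At no single step from the 4-cell stage to the blastocyst did either Cbx3 probe meet the DEG rule. The blastocyst was not tested directly against the 4-cell stage, and the course depends on the scaling. In the fit the 4-cell and blastocyst means were 13.095 and 12.587 for probe 1 and 13.87 and 13.944 for probe 2. Relative to the 75th percentile of the array they were 5.62 and 3.94 for probe 1 and 6.40 and 5.30 for probe 2. Probe 2 was also higher in GV oocytes (6.76, 7.02 and 6.40) than in MII oocytes (LFC -3.13, adjusted P = 4.06e-08), a difference whose size depends on the scaling: for Cbx3 probe 2, MII oocyte against GV oocyte in control, it was -2.09 with quantile normalization and -1.92 with scaling to the 75th percentile. With this probe 0 of 3 MII arrays were well above background, so the size of the difference is uncertain in each of these settings.

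Suv39h1 rose at the same step and Suv39h2 took the opposite course. Suv39h1 went from 3.63, 4.57 and 4.45 at the 1-cell stage to 7.81, 9.73 and 9.65 at the 2-cell stage, 28.8-fold (LFC 4.85, adjusted P = 1.79e-09), with 1 of 3 1-cell arrays well above background. Suv39h2 probe 2 fell from 11.32, 11.19 and 11.26 at the 1-cell stage to 10.06, 9.22 and 9.36 at the 2-cell stage (LFC -1.71, adjusted P = 7.12e-08). At the 4-cell stage it read 6.10, 6.08 and 6.06, 11.1-fold lower again (LFC -3.47, adjusted P = 1.15e-12). At the morula its LFC was 1.12 and that of probe 1 was 1.22, but neither reached the fold limit with quantile normalization (0.68 and 0.54) or scaling to the 75th percentile (0.52 and 0.58). The median of all probes at that step was 0.43, and -0.05 and -0.20 in those 2 processings. Suv39h2 probe 1, the G/T-run probe, fell at the 2-cell stage too (LFC -2.52) but not at the 4-cell stage (LFC 0.46, adjusted P = 0.0219).

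Ehmt2 rose 1 stage later. It read 10.10, 10.77 and 10.66 at the 2-cell stage and 14.75, 14.68 and 14.60 at the 4-cell stage, 18.0-fold higher (LFC 4.17, SE 0.16, adjusted P = 1.76e-14 in limma). In this fit Ehmt2 stayed between 14.49 and 14.94 up to the blastocyst, but its later course depends on the scaling. Relative to the 75th percentile of the array, Ehmt2 stood at 7.21 (4-cell), 7.23 (8-cell), 6.46 (morula) and 6.22 (blastocyst). Its partner Ehmt1, by probe 2, fell by 1.05 at the 2-cell stage (adjusted P = 6.91e-08) and had an LFC of 0.99 at the 4-cell stage, just under the fold limit (adjusted P = 1.06e-07). The fall was -0.68 with quantile normalization and -0.83 with scaling to the 75th percentile, both under the fold limit, and the 4-cell value was 1.06 without the control arrays of slide 1. Ehmt1 probe 1 had an LFC of 1.25 from MII to 1-cell, which was 0.87 and under the fold limit with scaling to the 75th percentile, as was the 0.93 of Suv39h2 probe 1. Ehmt1 probe 1 fell by 2.55 at the 2-cell stage and was past the limit at the 4-cell stage (1.24) only with the control arrays of slide 1 left out. The G/T-run probes as a whole did the same: 74.3% were up at the 1-cell stage against 14.9% of the others, and 90.9% were down at the 2-cell stage against 27.5%.

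Setdb1 fell by 1.67 from the 1-cell to the 2-cell stage (adjusted P = 6.12e-07), and Trim28 fell by 1.34 from MII to 1-cell and rose by 1.67 from the 2-cell to the 4-cell stage (adjusted P = 3.74e-07). Cbx5 probe 1 rose by 2.03 from MII to 1-cell and fell by 1.97 at the 2-cell stage, with the same direction but smaller values, 0.58 and -0.95, in probe 2. When the control arrays of slide 1 were left out, the fall of Cbx5 probe 2 passed the fold limit (-1.28), as did the 4-cell LFC of Cbx5 probe 1 (1.03). Cbx1 probe 1 fell by 2.46 at the 2-cell stage, where replicate 1 read 11.40 and the others 8.58 and 9.08 (-3.41 without slide 1), and rose by 2.35 at the morula. Cbx1 probe 2 also rose at the morula, by 2.87, from an 8-cell level that 2 of 3 arrays measured well above background. Probe 3 of Cbx1 ran another course, with an LFC of 1.71 from MII to 1-cell and of -1.45 at the 4-cell stage, which were 0.85 and -0.84 with normexp, under the fold limit.

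By count, 4 of the 15 probes rose and 1 fell from MII to 1-cell (background 19.4%), 3 rose and 7 fell from 1-cell to 2-cell (45.3%), and 4 rose and 2 fell from 2-cell to 4-cell (53.3%). Later, 1 fell from 4-cell to 8-cell (12.5%), Cbx1 probe 2, whose LFC of -1.08 was -0.58 (adjusted P = 0.0518) without replicate 1 of the 8-cell control, and 4 rose from 8-cell to morula (30.6%). From morula to blastocyst 0 met the DEG rule (22.4%), while 5 had an unadjusted P below 0.05 and 4 an adjusted one (38.8% of all probes). The 34 stage calls of member probes had the same direction on each of slides 1, 2 and 3, with within-slide differences from 2.27 to 4.27 for the 2-cell rise of Cbx3 probe 1 and from -3.59 to -0.58 for the 2-cell fall of Cbx1 probe 1. The calls were made from these same arrays, so a shared direction was likely beforehand and is no separate support for them. From GV to MII 8 fell (40.9%), but the median of all probes was itself -0.71 in this comparison and was 0.27 with quantile normalization and 0.55 with scaling to the 75th percentile, so that the direction of single probes between these oocytes depends on the scaling. The calls of Setdb1 (-1.87) and Cbx5 probe 1 (-2.00) were lost with quantile normalization (-0.41 and -0.66) and with scaling to the 75th percentile (-0.57 and -0.73).

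The levels over all 13 conditions can be ordered for each probe on the scale relative to the 75th percentile of the array, as a description. For Cbx3 probe 1 the 4-cell (5.62) and 8-cell (5.59) controls overlapped at the top, the 2-cell control stood at 3.66, and the 6 conditions from 2-cell T247 (0.40) to 2-cell MGCD0103 (-0.25) lay together above GV oocytes (-0.90). For Ehmt2 the 5 conditions from 4-cell on held 6.22 to 7.23 and the other 8 held 1.81 to 2.50, with no condition between them. For Suv39h2 probe 2 the order ran from MII (3.60) to the 8-cell control (-2.25), again with a gap, between 2-cell T247 (1.31) and blastocyst (-1.14). Suv39h1 was highest in 4-cell T247 embryos (2.97), beyond the 4-cell control (1.92). Cbx5 probe 2 and Cbx1 probe 3 had no break in their order: in each, all 12 pairs of neighbouring conditions overlapped.

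The probes most like each member over these 13 conditions were found by Pearson correlation of the condition means, among 21561 to 21563 probes of other named genes. For Ehmt1 probe 1 they belonged to Scn8a, Fdxacb1 and Hpca, and for Suv39h2 probe 1 to Pot1a, Atp8a1 and Slc1a4, with r from 0.9926 to 0.9965. All 6 of these probes held an alternating G/T run, of 12 to 16 bases. None of the nearest probes of the other 7 members had a run over 7 bases. Cbx3 probe 1 was most like Purb (r = 0.9933), Itgav and Wsb1, Ehmt2 most like Bad (r = 0.9932), Suv39h1 most like Hormad1 (r = 0.9808), Setdb1 most like Nt5c2 (r = 0.9799), Trim28 most like Pcsk7 (r = 0.9761), Cbx1 probe 1 most like Tbca (r = 0.9852) and Cbx5 probe 1 most like Sema3g (r = 0.9214).

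For Cbx3 and Trim28, which were both below control at the 2-cell stage, the RefSeq windows of 250 bases before the transcript start are shown, with capitals for the motifs found. The search covered both strands. The GC box was searched by its core GGGCGG. The CCAAT box was searched by its name letters. The TATA box was searched as TATAAA, and the palindromic E-box as CACGTG. The first of 2 Cbx3 starts has the window chr6:51470366-51470615 and Trim28 the window chr7:13023902-13024151, both on the plus strand of GRCm38.p6.
Cbx3: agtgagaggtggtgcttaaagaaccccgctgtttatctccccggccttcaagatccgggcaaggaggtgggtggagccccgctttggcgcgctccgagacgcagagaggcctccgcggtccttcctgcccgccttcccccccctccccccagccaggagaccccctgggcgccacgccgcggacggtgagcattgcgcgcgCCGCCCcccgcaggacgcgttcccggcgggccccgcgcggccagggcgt
Trim28: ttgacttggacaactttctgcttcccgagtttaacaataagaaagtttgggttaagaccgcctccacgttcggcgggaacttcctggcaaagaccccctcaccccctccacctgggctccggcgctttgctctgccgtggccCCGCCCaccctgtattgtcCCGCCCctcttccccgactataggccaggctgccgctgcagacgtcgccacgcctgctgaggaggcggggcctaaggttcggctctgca
All 9 member genes matched RefSeq, with 13 windows. GGGCGG was found in 12 of these windows and in all 9 genes, against 32.7% of all 32851 windows, whereas CCAAT was found in 3 (33.8% of all), TATAAA in 0 (12.4%) and CACGTG in 3 (6.02%), which belong to Cbx5 and Ehmt2. The window without GGGCGG was that of the other Cbx3 start, chr6:51471002-51471251, which is not printed here. The members lower than control after an inhibitor, those higher and those neither shared GGGCGG, and a match is a string of letters and not a binding site.

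The wider H3K9 pathway was followed through 40 genes on the array (other H3K9 methyltransferases, partners of the writers and of HP1, and H3K9 demethylases), of which 62 probes of 35 genes were tested. At the 1-cell stage 0 of 62 were called after either inhibitor in limma, although 17 after T247 and 12 after MGCD0103 had an unadjusted P below 0.05 (7 and 6 an adjusted P below 0.05 at any fold, beside 22.9% and 15.4% of all probes). In 2-cell embryos 22 fell and 0 rose after T247 (35.5%, beside the background of 23.5%), and 16 fell and 5 rose after MGCD0103 (33.9%, background 26.2%). In 4-cell embryos 5 fell and 3 rose after T247 (12.9%, background 18.0%). In 2-cell embryos the 62 probes had a median LFC of -0.67 (T247) and -0.26 (MGCD0103), against -0.23 and 0.05 for all probes.

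The largest of these falls was that of Sumo2, whose product is conjugated to chromatin proteins such as Trim28: its lowest probe read 8.39 to 8.71 after T247 against 10.52 to 12.17 in the 2-cell control (LFC -3.09, adjusted P = 4.37e-08), and all 5 of its probes fell between -2.82 and -3.09. After MGCD0103 another probe of Sumo2 fell most (LFC -3.86, adjusted P = 9.54e-10). The H3K9 demethylase Kdm4a fell by 2.10 after T247 and by 2.99 after MGCD0103 with 1 of its 2 probes, the other having LFCs of -1.15 and -0.58. Zfp644, a partner of Ehmt2, fell by 2.07 and 3.03 with 1 of its 3 probes, whereas its other probes had LFCs between -0.61 and 0.04. At the 4-cell stage after T247 the demethylases Phf8 (-1.24) and Jhdm1d (-1.18) were called, each by probes that differed within the gene, and Mecom was called by a probe that was not well above background in either group, so no fold is given.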

How the data were processed

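Cy3-labelled RNA on 1-colour Agilent arrays was scanned by the authors and read out in Feature Extraction, version 9.5.1.1 per the labels and 10.7.1.1 per the file headers. The deposited intensity (gProcessedSignal) was background-subtracted and detrended within an array and not normalized between arrays. The deposited flags gave positive and significant and well above background spots. The authors' log2 values of the series matrix, from their filled-in and smooth quantile normalized data, were used only as an alternative, and columns of other series numbered 0. The median of these log2 columns ran from 8.713 to 10.54 and they followed the log2 signal at r of 0.9984 or more; their exact centring stayed unknown.

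Spots of a probe were averaged, giving 55681 probes. Probes entered a test if each condition held a positive and significant spot; missing spots were filled in from a robust covariance (10% of probes left out), and smooth quantile normalization followed. There were 2 fits, normalized separately, the first of 24 arrays (1-cell to 4-cell with inhibitors, 32856 probes) and the other of 24 control arrays (31123 probes), so values of the first are not on the scale of the second. In contrast to the study's choice of the brightest probe of a gene, every probe was kept. limma 3.58.1 in R 4.3.3 gave LFC, SE and P, adjusted by Benjamini-Hochberg over all probes, and DEGs were probes below an adjusted P of 0.05 whose LFC was 1 or more in either direction. Levels over 13 conditions are log2 signals minus the 75th percentile of the array (7.179 to 9.278). For a probe not well above background on any array of a group, the size of a fold is uncertain. With 3 arrays per condition the number of arrays limits the precision; the study describes them as biological replicates, with a separate pool of embryos behind each array.

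All probes of the members are named, and of the wider lists at most the 3 genes per inhibitor comparison with the largest change, called with no overlap between groups. The members, lists and motifs were chosen with earlier results of these data known. Replicate numbers did not pair the arrays in the inhibitor comparisons (correlations of same-numbered deviations -0.134 to 0.157). Control replicates 1, 2 and 3 were slides 1, 2 and 3, and same-numbered controls deviated together only in part (0.0391 to 0.322). The fit was tested on simulated data.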

Additional observations from a re-analysis of the deposited data

Results flagged for a closer look

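For 12 combinations of probe, inhibitor and pair of stages, the effect differed between the stages by a test of the difference itself (the interaction contrast in limma, adjusted over all probes). Between 1-cell and 2-cell embryos the T247 effect shifted by -3.43 for Cbx3 probe 1 (SE 0.46, adjusted P = 1.74e-05), by -3.38 for Cbx3 probe 2, by -1.15 for Setdb1 and by -1.04 for Cbx5 probe 1. The MGCD0103 effect shifted by -4.06 for Cbx3 probe 1, by -3.76 for Cbx3 probe 2, by -1.64 for Suv39h1 (adjusted P = 0.0186), by -1.06 for Trim28 probe 1 and by 1.89 for Cbx1 probe 1 (adjusted P = 0.0257). Between 2-cell and 4-cell embryos the T247 effect shifted by 2.90 and 2.89 for the Cbx3 probes and by -2.09 for Cbx1 probe 1. Among all tested probes 18.0%, 19.3% and 24.4% met the same rule in these 3 contrasts, beside 4, 5 and 3 of the 15 member probes. Apart from those of Cbx3 and the T247 shift of Cbx1 probe 1, each of these shifts lost its call in 1 or more alternatives. The MGCD0103 shift of Suv39h1 lost its call with quantile normalization (-1.27, adjusted P = 0.0617), with normexp (-0.79, adjusted P = 0.114) and without replicate 1 of the 1-cell control (-1.35, adjusted P = 0.0567) or replicate 2 (-1.30) or 3 (-1.34) of the 2-cell control. That of Trim28 probe 1 was under the fold limit with quantile normalization (-0.71), with scaling to the 75th percentile (-0.82) and without replicate 1 of the 1-cell control (-0.98) or replicate 2 of the 2-cell control (-0.88). That of Cbx1 probe 1 was lost without replicate 3 of the 1-cell control (1.82, adjusted P = 0.0537) or replicate 2 (1.34) or 3 (1.59) of the 2-cell control. The T247 shifts of Setdb1 and Cbx5 probe 1 were under the limit with quantile normalization (-0.81 and -0.87), with scaling to the 75th percentile (-0.85 and -0.73) and without replicate 2 of the 1-cell control (-0.98 and -0.94) or the control arrays of slide 1 (-0.90 and -0.89). Leaving out slide 1 also moved the shifts of the Cbx3 probes from 1-cell to 2-cell embryos to -4.07 and -4.09 (T247) and to -4.70 and -4.47 (MGCD0103), and those of Cbx1 probe 1 to 2.83 (MGCD0103) and -3.13 (T247, 2-cell to 4-cell). It brought 6 more past the rule: T247 between 1-cell and 2-cell embryos for Suv39h1 (-1.54) and Cbx1 probe 1 (2.15), MGCD0103 for Ehmt2 (-1.18), and T247 between 2-cell and 4-cell embryos for Ehmt1 probe 1 (-1.23), Suv39h1 (1.69) and Trim28 probe 1 (1.101).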

How the results depend on the processing

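Of the alternatives run, the lower levels of both Cbx3 probes and of Trim28 probe 1 at the 2-cell stage and the rises of Ehmt1 probe 1 at the 1-cell and 2-cell stages stayed DEGs in each one that could give them. Precision is limited by 3 arrays per condition and, for Suv39h1 and Cbx3 probe 2 before the 2-cell stage, by signals near background. The call of Suv39h1 after MGCD0103 at the 1-cell stage was lost in most alternatives (values 0.256 to 1.058), and the cause was not tested.

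Counts of member DEGs that moved by over 1.5 times are given by setting. With quantile normalization they were 2 (MGCD0103 against T247, 2-cell), 3 (shift of MGCD0103), 5 (T247, 2-cell to 4-cell shift), 5 (MII) and 2 (morula). With scaling to the 75th percentile they were 2 (T247, 4-cell), 0 (MGCD0103 against T247, 2-cell), 2 (T247, 1-cell to 2-cell shift), 4 (MII) and 2 (morula). With normexp they were 0 for MGCD0103 against T247 at the 2-cell stage and 0 for the 8-cell stage. With no fold limit they were 5, 5, 10 and 9 (T247 and MGCD0103 at the 1-cell stage, T247 at the 2-cell and 4-cell stages), 7 (MGCD0103 against T247, 2-cell), 10 (T247, 2-cell to 4-cell shift), 11 (4-cell), 3 (8-cell), 9 (morula) and 4 (blastocyst). Of all probes, 22.9% (T247) and 15.4% (MGCD0103) had an adjusted P below 0.05 at any fold in 1-cell embryos. The share was 26.3% for MGCD0103 against T247 in 2-cell embryos and 38.8% for blastocyst against morula. No such share was computed beside the remaining counts without a fold limit, so those cannot be compared with an array-wide rate. Series matrix values, which hold 13 member probes, gave 3 (shift of MGCD0103), 0 (8-cell) and 1 (blastocyst). The brightest probe per gene gave 4 (MII), 3 (1-cell), 6 (2-cell), 3 (4-cell), 0 (8-cell) and 2 (morula), with fewer probes to count. The last alternatives were chosen after seeing the data. Without the control arrays of slide 1 the counts were 2 (T247, 4-cell), 6 (T247, 2-cell to 4-cell shift) and 0 (8-cell). Without the G/T-run probes they were 1 and 1 (T247 and MGCD0103, 1-cell) and 3 (1-cell against MII).

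Leaving out 1 array at a time gave 2 to 3, 2 to 2, 4 to 6, 6 to 7 and 1 to 1 DEGs in the 5 inhibitor comparisons, 0 to 0 and 1 to 2 between the inhibitors, 2 to 4, 2 to 6 and 3 to 6 for the 3 shifts, and 7 to 8, 5 to 5, 10 to 11, 6 to 7, 0 to 1, 4 to 4 and 0 to 3 along the stages. Between MII and GV oocytes, quantile normalization reversed Ehmt1 probe 1 (0.332), Ehmt1 probe 2 (1.238), Ehmt2 (0.055), Suv39h2 probe 1 (0.289), Suv39h2 probe 2 (1.474), Trim28 probe 1 (1.105) and Cbx1 probe 2 (0.101), and scaling to the 75th percentile reversed Ehmt1 probe 1 (0.189), Suv39h2 probe 1 (0.277), Suv39h2 probe 2 (1.276), Cbx1 probe 2 (0.121) and Cbx3 probe 1 (1.059).

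With the replicate number as a block, the numbers of DEGs among the members were 3, 3, 4, 6 and 1 in the inhibitor comparisons. Cbx1 probe 1 after T247 at the 2-cell stage lost its call under this block (LFC 1.08, adjusted P = 0.0523), and no other call of a member probe changed.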
